A study of Mus musculus with 15 samples.

Results

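L2P is a line of mouse mammary epithelial cells that was recovered from lung after a second passage through mice, and E1KD is the line from which that lineage started. The comparison used all 18193 genes of the value table, each represented by the probe set with the highest mean over the 15 arrays of the series. It set the 3 arrays of L2P against the 3 arrays of E1KD, 6 of 15 arrays in all.

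The series measured RNA on Affymetrix 3' expression arrays in 5 related lines with 3 arrays each. NMuMG is the parental wild-type line, normal murine mammary gland cells that form no tumours per the labels. E1KD is NMuMG with hnRNP E1 silenced, called tumorigenic in the labels, and without selection in mice. The other 3 lines were recovered from mice and carry the same silencing: M1P from a tumour that E1KD formed in the mammary fat pad, L1P from the lungs of mice whose fat pads had received E1KD, and L2P from the lungs of mice whose fat pads had received L1P. All lines were grown in one medium with fetal bovine and calf serum before RNA extraction. Each passaged line is a single line, and no line passaged a second time in the fat pad and no silenced line kept in culture for the same time was analysed here. Effects of lung growth therefore cannot be told apart from those of clonal selection, time in culture or growth in a mouse. Whether the 3 arrays of each line stem from separate cultures is not stated in the labels, and the p-values then reflect only the variation among arrays, which may be technical. The cells and their hosts are both mouse, so host RNA cannot be separated by sequence, and in bulk RNA fewer cells of a type and less RNA per cell cannot be told apart.

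hnRNP E1, encoded by Pcbp1, attaches to C-rich stretches of RNA and keeps selected messages of mammary epithelial cells untranslated, among them Dab2 and Fam3c (ILEI), until TGF-beta signalling releases them. That release accompanies the epithelial to mesenchymal transition, in which cells loosen their junctions and become motile. Serial passage through an animal and recovery from a distant organ is a classic way to enrich for cells able to leave a primary site, survive in the circulation and grow in that organ.

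Arrays of L2P correlated with each other at 0.9829 or more and those of E1KD at 0.9923 or more. L2P array 1 stood apart from the other L2P arrays: its upper quartile of log2 signal was 6.669 against 6.843 and 6.838, and its estimated weight was 0.432 against 3.909 and 3.232. The M1P arrays stood apart further, with weights of 0.161, 0.005 and 0.436 and correlations with each other down to 0.9198, and they enter every test through the shared estimate of spread. Counts are therefore also given without L2P array 1 and without M1P. The 3' minus 5' difference of the Gapdh control probe sets, a sign of RNA integrity, was 0.317 to 0.39 log2 units in E1KD and 0.186 to 0.317 in L2P. For Actb it was 0.773 to 0.932 in E1KD and 0.685 to 0.829 in L2P. No detection calls were used, so a log2 signal near the lowest values of about 2 was not separated from no signal, and fold changes against such signals are compressed.

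The targeted gene was examined first. Pcbp1 had log2 signals of 9.36, 8.99 and 9.40 in the 3 E1KD arrays and 8.30, 7.95 and 8.21 in the 3 L2P arrays. Every L2P array lay below every E1KD array, and all 6 lay below the NMuMG mean of 12.68 ± 0.10 (SD, n = 3). Pcbp1 fell 2.14-fold between E1KD and L2P (log2 change -1.10 ± 0.22, SE here and below for differences, adjusted p = 0.0113). The call did not survive the omission of E1KD array 1 (adjusted p = 0.053), E1KD array 3 (0.059) or L2P array 2 (0.0651). Of the 13 poly(C)-binding and related hnRNP genes, Pcbp1 alone fell and 0 rose (7.69%, against 3.78% of all genes). Lower signals in L2P were seen for 11 of the 13, Pcbp1 included. Over the alternatives tried, 0 to 5 of the 13 passed. In the list of 15 hnRNP E1 targets and ILEI, LIFR and STAT3 axis genes, 0 passed by limma with all 15 arrays; arrays of RNA do not measure translation. In that list Dab2 was at -0.61 (adjusted p = 0.162), Fam3c at -0.58 (0.0758) and Lifr, a receptor of the ILEI axis, at -0.16 (0.936; -0.99 and 0.0158 with its probe set of largest variance). Fam3c passed under 8 of 21 alternatives and Dab2 under 5 of 21, each with the same negative sign, and up to 4 of the 15 genes passed under some alternative.

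L2P differed from E1KD in 687 of 18193 genes, 3.78% of those tested, at an adjusted p under 0.05 in limma. Of these, 389 rose (2.14%) and 298 fell (1.64%), with median log2 changes of 1.07 and -1.15. At least 2-fold changes accounted for 223 rises and 175 falls (2.19% of all genes), and at least 8-fold changes for 10 rises and 13 falls. The median difference over all genes was 0, with quartiles of -0.13 and 0.13. The L2P and E1KD arrays did not overlap in 3638 genes (20.0%), among them all 389 that rose and 297 of the 298 that fell. Without L2P array 1 there were 301 rises and 301 falls, and without the M1P line 753 rises and 598 falls. The total dropped to 424 when E1KD array 2 was left out and to 453 when E1KD array 3 was; it was 446 without L2P array 2 and 1164 without M1P array 1. Rises numbered 212 without E1KD array 2 and 660 without M1P array 1. Falls numbered 175 without E1KD array 3, 179 without L2P array 2, 185 without L2P array 3 and 504 without M1P array 1.

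**Figure D1:**
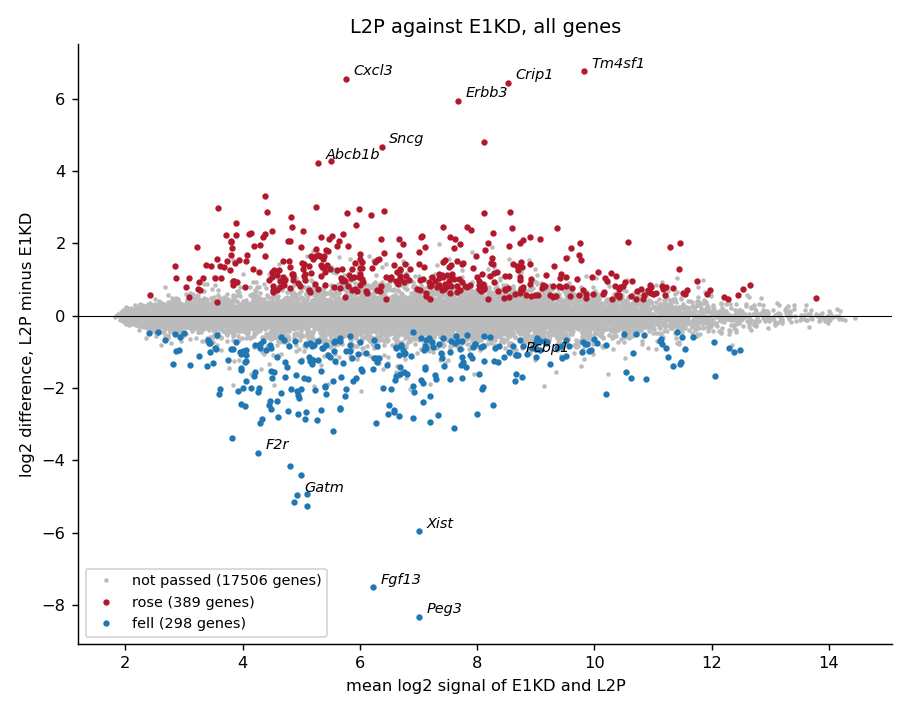
Difference between L2P and E1KD in log2 signal (vertical axis) against the mean log2 signal of both lines (horizontal axis) for 18193 genes, 1 point a gene. The 389 genes that rose and the 298 that fell by limma are coloured, and most of the other genes lie close to 0; the largest differences, Tm4sf1 at 6.76 and Peg3 at -8.32, stand far from that band.

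The plot of difference against level shows rises and falls at low and high signals, but not in equal shares. Of 18193 genes, 8468 had a mean log2 signal above 6 in E1KD or L2P. These held 294 of the 389 rises and 203 of the 298 falls. Tm4sf1, a tetraspan membrane protein of the L6 family linked to cell motility, had log2 signals of 6.85, 6.12 and 6.35 in E1KD and 13.39, 13.05 and 13.16 in L2P. It rose 108-fold (6.76 ± 0.18, adjusted p = 5.34e-11). The groups did not come near each other, and L2P was also above the NMuMG mean of 12.12. Erbb3, the neuregulin-binding receptor that signals in a pair with Erbb2, was 4.63, 4.63 and 4.84 in E1KD and 10.89, 10.54 and 10.53 in L2P. Its rise was 62-fold (5.95 ± 0.39, adjusted p = 1.07e-06), and both lines were tight, with all L2P arrays far above NMuMG at 5.77. Erbb3 was also high in L1P (10.43) and was at 7.42 in M1P. A second Erbb3 probe set differed by 0.03 only. Crip1, a small zinc-binding LIM protein, was 5.40, 5.06 and 5.48 in E1KD and 11.85, 11.78 and 11.62 in L2P, an 86.6-fold rise (6.44 ± 0.16, adjusted p = 5.34e-11). It was also high in M1P (10.99) and L1P (11.64).

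Cxcl3, a chemokine that attracts neutrophils, lay at 2.60, 2.35 and 2.53 in E1KD, near the lowest signals on the arrays, and at 9.18, 9.42 and 8.52 in L2P. It rose 93.6-fold (6.55 ± 0.65, adjusted p = 5.19e-05), and its L1P arrays, at 2.44, 2.51 and 2.54, were as low as those of E1KD. The M1P arrays were at 8.53, 7.90 and 4.86, also above E1KD (4.61, adjusted p = 0.00114). Abcb1b, which encodes a P-glycoprotein drug efflux pump, went from 2.94, 3.14 and 3.46 to 7.30, 7.51 and 7.40. That is an 18.7-fold rise (4.23 ± 0.15, adjusted p = 1.04e-09) from a signal near the floor to one in the middle of the range; its other probe set stayed low, at -0.22. Sncg, gamma-synuclein, rose 25.4-fold and Mapk12, the p38 gamma kinase, 19.6-fold. Mapk12 had a mean of 7.66 in L2P, 7.97 in M1P and 7.88 in L1P. AI467606, a gene with no role given here, rose 27.7-fold, to 10.51 against 9.69 in NMuMG. Further rises were Slc4a5, a sodium bicarbonate transporter (9.84-fold), Tph2, an enzyme of serotonin synthesis (7.95-fold), Nostrin, which regulates nitric oxide synthase traffic (7.71-fold), and the cilium protein gene Maats1 (7.31-fold). Dhrs1, a short-chain dehydrogenase, rose from 7.22, 6.76 and 7.40 to 10.29, 9.87 and 9.82. Ly9, a receptor of lymphocytes, rose 8.06-fold and Wdfy4, a gene of antigen-presenting dendritic cells, 7.45-fold.

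The largest falls took several genes from high signals to the floor. Peg3, an imprinted zinc finger gene expressed from the paternal copy, had log2 signals of 10.90, 11.47 and 11.14 in E1KD and 3.31, 2.71 and 2.54 in L2P. It fell 319-fold (-8.32 ± 0.64, adjusted p = 4.3e-06), with 4 of its 5 probe sets lower and the fifth near the floor in both lines. M1P (5.21) and L1P (5.3) were also far below E1KD. The further difference of L2P from L1P (-2.44, adjusted p = 0.408 by limma) did not pass. In the list of 19 imprinted growth genes Peg3 was the single gene that passed (5.26%, against 3.78% of all genes), with a list median of 0.02. Fgf13, an intracellular member of the FGF family that binds sodium channels, was 10.04, 9.81 and 10.09 in E1KD and 2.72, 2.25 and 2.45 in L2P. It fell 182-fold (-7.51 ± 0.23, adjusted p = 3.39e-10); NMuMG (8.70), M1P (9.69) and L1P (9.66) were all high, so L2P was the line that stood apart. Xist, the RNA that coats and silences an X chromosome, went from 10.07, 10.77 and 9.16 to 4.44, 3.75 and 3.91, a 62.4-fold fall (-5.96 ± 0.35, adjusted p = 3.88e-07). It was also low in M1P (4.46) and L1P (3.93). Of 617 X-linked genes measured, 5 rose and 20 fell (3.24%, against 1.64% of all genes), with a median of -0.06. Of the 230 with a mean log2 signal above 6 in E1KD or L2P, 26.1% were higher in L2P, 4 rose and 12 fell, with a median of -0.18.

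Other large falls were Klhl13, an adaptor of a cullin ubiquitin ligase (38.6-fold), Khdrbs3, an RNA-binding splicing regulator (30.7-fold), and Hook1, which links cargo to microtubules (21.3-fold). Klhl13 was also near the floor in M1P (2.52) and L1P (2.34). Elmod1, a regulator of Arf family GTPases, fell 17.7-fold, the scavenger receptor Scara3 10.4-fold, the tetraspan protein Pmp22 9.09-fold and the cadherin Cdh17 8.58-fold. The sulfotransferase Chst15 fell 7.91-fold and the zinc finger gene Zfp518a 7.88-fold. For the 15 largest rises and the 15 largest falls the adjusted p stayed under the threshold in all of the up to 21 alternatives tried, with a highest value of 0.0216. The sizes depended on the probe set. As the mean over all probe sets of a gene the changes were -3.66 for Peg3, -4.04 for Fgf13, -3.44 for Klhl13, -2.31 for Bcat1, -2.45 for Hook1 and -2.97 for F2r. By the same measure they were 5.47 for Tm4sf1, 2.99 for Erbb3, 2.38 for Mapk12, 2.00 for Abcb1b, 1.45 for Wdfy4 and 1.40 for Maats1. Among genes described below they were -1.49 for Inhbb, -1.31 for Epas1, 0.94 for Sema3b, 1.06 for Csn3 and 1.38 for H2-D1, each past the threshold.

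**Figure D2:**
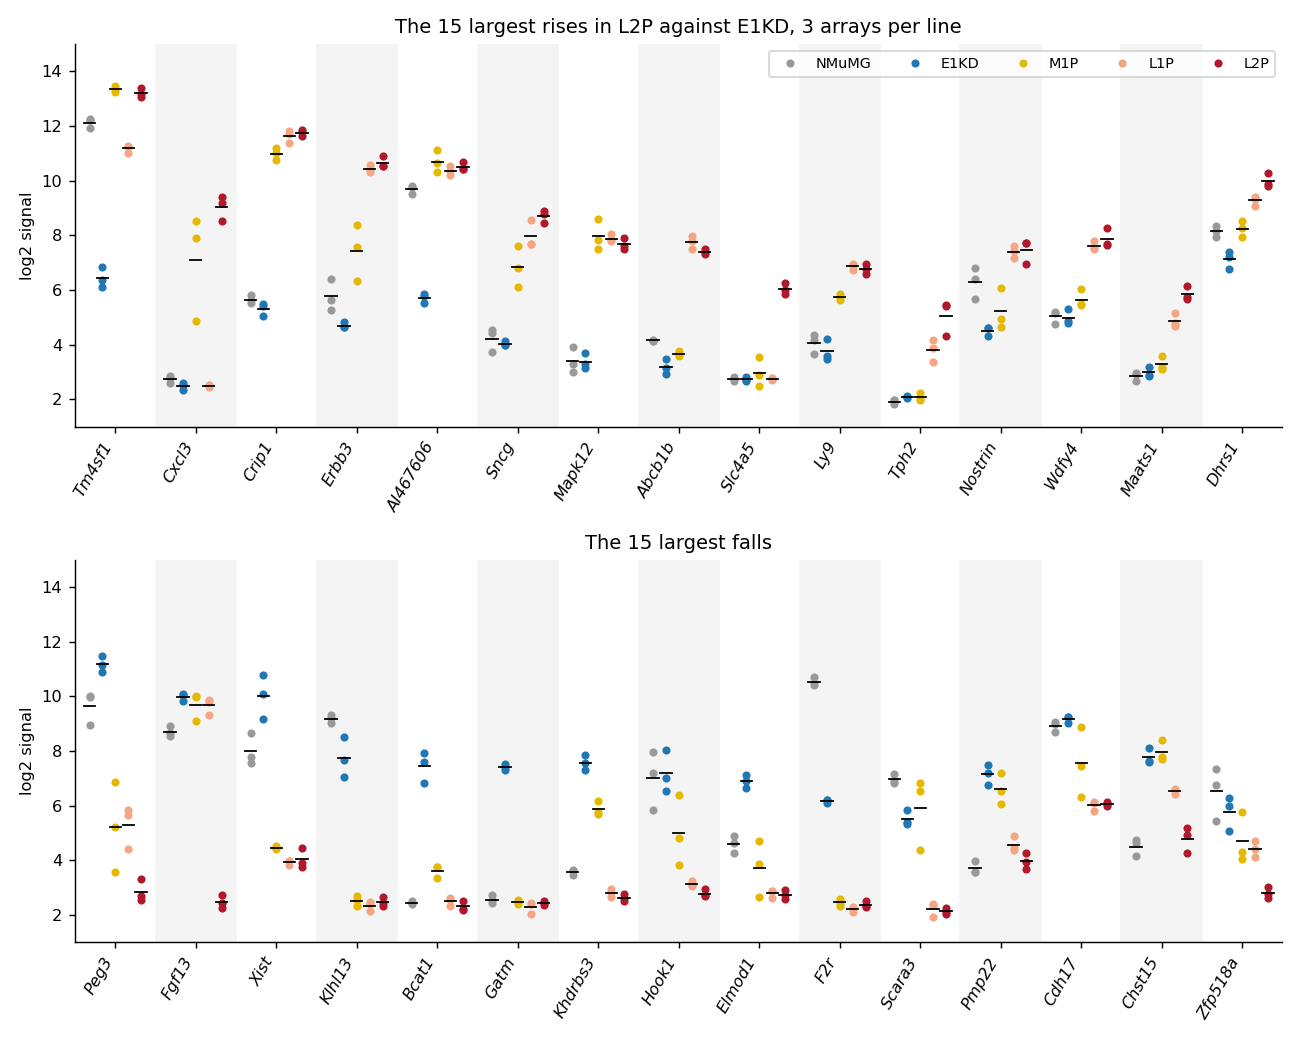
Log2 signal (vertical axis) of the 15 largest rises (upper panel) and 15 largest falls (lower panel) between E1KD and L2P, with 1 point per array, 3 arrays for each of the 5 lines, and a bar at each line's mean. The genes were chosen among those whose L2P and E1KD points do not overlap. Cxcl3 and Slc4a5 are low in L1P and high in L2P, and Fgf13 is high in every line except L2P.

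Metabolic genes were examined next. The gene lists here and below were written with earlier results of these data known. Their shares of called genes were therefore not tested against the 3.78% of all genes. Sterols are built from acetyl-CoA through mevalonate and squalene by enzymes whose genes are switched on together by the factor Srebf2 when cells lack cholesterol, while Srebf1 favours the genes of fatty acid synthesis. Of 28 cholesterol and fatty acid genes, 9 fell (32.1%, against 3.78% of all genes) and 0 rose. The list median was -0.80, against 0 over all genes, and 26 of the 28 were lower in L2P. Mvd, the mevalonate decarboxylase, had log2 signals of 7.43, 7.33 and 7.44 in E1KD and 6.38, 5.72 and 5.81 in L2P, a 2.69-fold fall (-1.43 ± 0.24, adjusted p = 0.00353). Nsdhl, which removes methyl groups from the sterol ring, was 8.96, 8.98 and 9.02 in E1KD and 7.88, 7.48 and 7.79 in L2P, a 2.41-fold fall (-1.27 ± 0.16, adjusted p = 0.00043). In both genes every L2P array was below every E1KD array, with L2P array 2 the lowest. The other falls covered early and late steps: Fdps (-1.16), Fdft1 (-1.14), Sqle (-0.98), Lss (-1.14), Hsd17b7 (-1.36), the sterol sensor Insig1 (-1.16) and the sterol carrier Stard4 (-0.84).

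Idi1 (-1.95, adjusted p = 0.185) and Hmgcs1 (-1.62, adjusted p = 0.0848) had larger differences but wider spread and did not pass. Srebf2 was at -0.78 (adjusted p = 0.259). Among members that act in fatty acid synthesis, Fasn was at 0.14, Acly at -0.09, Acaca at -0.30, Scd1 at -0.45, and Scd2 and Elovl6 at -0.80, and none of these passed; Srebf1 was at -0.03. The count of 9 depended on single arrays: it was 5, 5 and 3 when E1KD array 1, 2 or 3 was left out, and 7, 2 and 4 when L2P array 1, 2 or 3 was. It was 15 without the M1P line and 22 with array weights, and the list median ran from -0.91 to -0.60 over all alternatives. Hsd17b7 and Insig1 missed the threshold without any 1 of the 6 arrays (adjusted p = 0.0561 to 0.193), and Mvd and Nsdhl passed under all 21 alternatives.

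**Figure D3:**
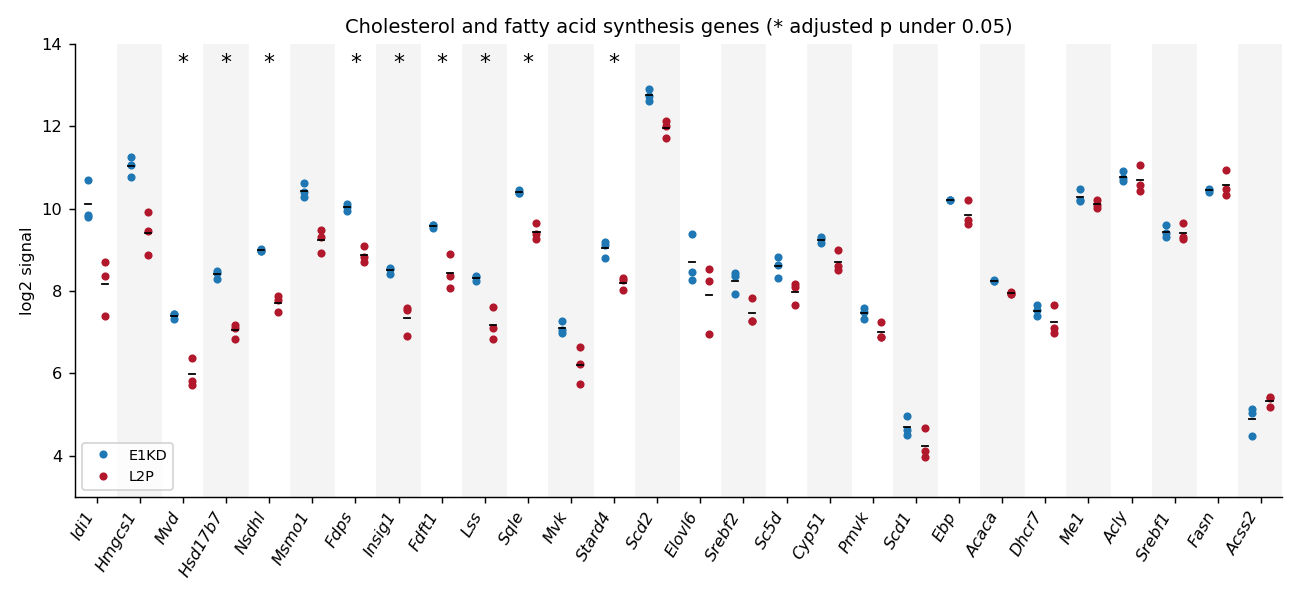
Log2 signal (vertical axis) of 28 cholesterol and fatty acid synthesis genes in E1KD and L2P, ordered by their difference, with 1 point per array (3 per line), bars at the means and a star over the 9 genes with an adjusted p under 0.05. From Idi1 to Scd2 every L2P point lies below every E1KD point, while Acly, Srebf1 and Fasn overlap.

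Promoters of falling sterol genes are shown because these genes moved together and because such promoters are known to pair sterol elements with CCAAT boxes. The sequences are RefSeq's, build GRCm38.p6, 300 bases around the transcription start, 5′ to 3′ on the gene's strand; 5 of the 9 genes that fell have an entry. Capitals mark CCAAT and its complement ATTGG. Mvd is at chr8:122443373-122443672 on the minus strand, Nsdhl at chrX:72918271-72918570 on the plus strand and Insig1 at chr5:28071162-28071461 on the plus strand.
Mvd: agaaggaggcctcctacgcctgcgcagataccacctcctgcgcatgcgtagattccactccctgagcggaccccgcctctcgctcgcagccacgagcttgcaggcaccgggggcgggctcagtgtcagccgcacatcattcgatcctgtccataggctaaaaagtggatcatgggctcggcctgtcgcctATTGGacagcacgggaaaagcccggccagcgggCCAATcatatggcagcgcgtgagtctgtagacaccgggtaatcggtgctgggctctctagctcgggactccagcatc
Nsdhl: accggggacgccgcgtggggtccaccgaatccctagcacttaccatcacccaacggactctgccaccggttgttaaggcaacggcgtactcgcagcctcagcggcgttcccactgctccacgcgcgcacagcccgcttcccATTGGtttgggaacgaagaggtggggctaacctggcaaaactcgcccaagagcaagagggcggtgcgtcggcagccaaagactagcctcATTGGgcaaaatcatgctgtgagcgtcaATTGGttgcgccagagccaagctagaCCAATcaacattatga
Insig1: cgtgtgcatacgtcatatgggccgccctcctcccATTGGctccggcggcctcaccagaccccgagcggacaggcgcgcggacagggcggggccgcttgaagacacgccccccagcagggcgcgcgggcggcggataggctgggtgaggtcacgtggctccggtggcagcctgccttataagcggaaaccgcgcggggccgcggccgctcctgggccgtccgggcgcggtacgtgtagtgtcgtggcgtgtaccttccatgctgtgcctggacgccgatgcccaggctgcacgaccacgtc
The Mvd window held 2 such boxes, that of Nsdhl 4 and that of Insig1 1. All 5 of 5 falling genes with an entry held the 5 letters on either strand, as did 15 of 17 other genes of the list (88.2%) and 41.1% of all 27025 genes with an entry. The boxes therefore did not mark out the members that passed within the list. The letters TCACNCCAC, one written form of a sterol element, were found on either strand in 0 of the 5, in 1 of the 17 others (Hmgcs1) and in 1.44% of all 27025 genes. A match is only a match of letters, and binding was not measured.

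In amino acid and creatine metabolism 4 of 31 genes fell and 0 rose (12.9%, against 3.78% of all genes), with a list median of 0.13. Gatm, the enzyme of the first step of creatine synthesis, had log2 signals of 7.32, 7.40 and 7.53 in E1KD and 2.45, 2.51 and 2.37 in L2P, a 31.4-fold fall (-4.97 ± 0.13, adjusted p = 5.34e-11). Bcat1, the cytosolic transaminase of branched-chain amino acids, went from 7.94, 6.84 and 7.58 to 2.52, 2.23 and 2.18, a 35.3-fold fall (-5.14 ± 0.23, adjusted p = 1.44e-08). In L2P both lay near the NMuMG means of 2.56 for Gatm and 2.44 for Bcat1, with E1KD as the high line. Gatm was at 2.46 in M1P and 2.30 in L1P, and Bcat1 at 3.62 and 2.49. Got1, the cytosolic aspartate transaminase, fell (-1.25 ± 0.15, adjusted p = 0.000235), as did the creatine transporter Slc6a8 (-1.24 ± 0.23, adjusted p = 0.00789). The Slc6a8 call rested on its brighter probe set: the one of larger variance was at -0.26 (adjusted p = 0.986), and the mean of both missed the threshold (0.172).

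Among 15 thrombin receptor and coagulation genes, 3 fell and 1 rose (26.7%, against 3.78% of all genes). F2r, the thrombin receptor PAR1, had signals of 6.19, 6.10 and 6.22 in E1KD and 2.31, 2.30 and 2.50 in L2P (-3.80 ± 0.12, adjusted p = 3.39e-10), and it was at 10.54 in NMuMG. NMuMG, E1KD and L2P thus formed a descending series with no overlap of arrays. M1P (2.46) and L1P (2.21) were also near the floor. Thbs1, the matrix protein thrombospondin 1, fell 7.34-fold (adjusted p = 4.91e-06), and F3, tissue factor, which starts coagulation, fell 2.66-fold (adjusted p = 0.0047). Procr, the protein C receptor and a marker of some mammary stem cells, was 7.70, 7.09 and 7.36 in E1KD and 10.09, 9.83 and 9.49 in L2P, a 5.35-fold rise (2.42 ± 0.27, adjusted p = 0.000144). In the list of 25 mammary stem and tumour-initiating markers it was the 1 rise, and the efflux pump Abcg2 the 1 fall. Of this list 8.0% was called, against 3.78% of all genes.

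Of 18 ABC transporters, 2 rose and 2 fell (22.2%, against 3.78% of all genes), so the efflux pumps did not move one way. Beside Abcb1b, Abcc4, a pump for cyclic nucleotides and prostaglandins, rose (1.04, adjusted p = 0.0281); it lies on chromosome 14, described below, and it missed the threshold without any 1 of the 6 arrays (0.0617 to 0.14). Abcg2, the breast cancer resistance protein, fell 6.75-fold from 8.79, 8.65 and 8.72 to 5.95, 6.12 and 5.81 (-2.76 ± 0.31, adjusted p = 0.000149). Abcc2, an apical exporter of conjugates, fell 6.39-fold (adjusted p = 0.000101) and lies on chromosome 19.

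Of 38 cytokines and chemokines, 3 rose and 1 fell (10.5%, against 3.78% of all genes), with a list median of 0.12. Beside Cxcl3, Cxcl2, a second neutrophil-attracting chemokine, rose 3.75-fold, from 2.33, 2.26 and 2.24 to 4.18, 4.44 and 3.92 (1.91 ± 0.13, adjusted p = 1.13e-06). Its L2P signals were still at about the array median of 4.2. Il15, a survival factor of natural killer and memory T cells, rose 1.99-fold (adjusted p = 0.0131), and its call was lost without E1KD array 1 (0.0692), L2P array 2 (0.0593) or L2P array 3 (0.0723). Vegfc, a growth factor of lymphatic vessels, fell 3.85-fold (adjusted p = 0.00133).

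Antigen presentation had 4 rises and 0 falls in 15 genes (26.7%, against 3.78% of all genes), with a median of 0.06. These were the class I genes H2-D1 (7.24, 7.02 and 7.28 in E1KD against 9.36, 9.11 and 9.13 in L2P, 4.06-fold, adjusted p = 0.00551), H2-K1 (3.55-fold, 0.00489) and H2-M3 (2.52-fold, 0.0185), and the lipid-presenting Cd1d1 (3.15-fold, 0.000166). The partners of class I did not pass: B2m was at -0.45, Tap1 at 0.31 and Tapbp at -0.35. Class I probe sets can bind transcripts of several H2 genes, and 2 of the 4 of H2-K1 were lower in L2P, so that its mean over probe sets was 0.31 (adjusted p = 0.745). H2-M3 missed the threshold without E1KD array 2 (0.0938), L2P array 1 (0.065) or L2P array 2 (0.073). Of 33 interferon response genes, 3 rose and 0 fell (9.09%, against 3.78% of all genes), with a median of 0.09. Irf9, a subunit of the factor that carries the type I interferon signal, rose 2.66-fold (adjusted p = 0.0011). The membrane antiviral protein Ifitm3 rose 2.61-fold (0.00159) and the RNA sensor Ifih1 2.6-fold (0.0209). Ifitm3 went from 2.8, 2.55 and 2.69 to 3.87, 4.17 and 4.16, no higher than about the array median of 4.2. In L1P its mean was 2.72. Irf9 lies on chromosome 14, and Ifih1 missed the threshold without any 1 of the 5 arrays other than L2P array 1 (0.0552 to 0.113).

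Genes best known from leukocytes, Ly9, Wdfy4, Itgb2 (the integrin chain CD18), Pstpip1 and Grap, were among the rises, so markers of leukocytes were examined beside them. Of 15 macrophage and leukocyte markers, 0 passed by limma, and the list mean over arrays was 4.30 to 4.37 in E1KD and 4.35 to 4.58 in L2P. Ptprc, the pan-leukocyte antigen CD45, was at 2.49 in E1KD and 2.46 in L2P, and Tyrobp at 3.43 in both, near the floor. Cd68 (5.01 and 6.18, adjusted p = 0.0806) and Lyz2 (4.19 and 5.20, adjusted p = 0.141) were higher in every L2P array and did not pass. Up to 3 markers of this list passed under some alternative.

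Of 13 fibroblast, 13 endothelial, 6 adipocyte, 8 skeletal muscle and 3 erythrocyte genes, 0 passed by limma, with list medians of -0.01, -0.03, -0.02, -0.01 and -0.18. Up to 3 endothelial genes passed under some alternative. Their list means lay at 3.23 to 4.16 log2 units in all 6 arrays. In the alveolar and airway list Aqp5, a water channel also found in glands, fell (-1.02, adjusted p = 0.0193) and 11 of 12 genes did not pass. Of this list 8.33% was called, against 3.78% of all genes. The Aqp5 call was lost without any 1 of the arrays other than L2P array 1 (0.0594 to 0.0911). The milk protein gene Csn3 rose 4.21-fold (adjusted p = 0.00136), the 1 change among 9 mammary secretory genes (11.1%, against 3.78% of all genes). Cdh1, E-cadherin, a defining gene of the labelled epithelial line, was high in both lines, at 11.17 ± 0.19 in E1KD and 10.47 ± 0.03 in L2P (SD, n = 3 each).

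Genes of the epithelial and mesenchymal states were then compared. In L2P the E-cadherin gene Cdh1 was lower by -0.69 (adjusted p = 0.231), the N-cadherin gene Cdh2 by -0.83 (0.296) and fibronectin, Fn1, by -1.22 (0.0773), while the vimentin gene Vim was at 0.16 (0.774). None of these passed with all 15 arrays. Cdh1 passed with only E1KD and L2P in the model (adjusted p = 0.0253), Cdh2 likewise (0.0338), and Fn1 without the M1P line (0.0296), in each case with the same sign. Of 26 mesenchymal genes and EMT transcription factors, 2 rose and 1 fell (11.5%, against 3.78% of all genes), with a median of -0.08. Twist2, a mesenchymal transcription factor, rose 3.26-fold (adjusted p = 0.00217). S100a4, a calcium-binding protein of motile cells, fell 3.17-fold (adjusted p = 1.13e-05). The third, the smooth muscle actin gene Acta2 (0.78, adjusted p = 0.0341), missed the threshold without E1KD array 2 (0.172), E1KD array 3 (0.145), L2P array 1 (0.128) or L2P array 2 (0.0819), and with the mean over its probe sets (0.30, 0.369).

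Of 34 junction and polarity genes, 1 passed (2.94%, against 3.78% of all genes). Marveld2, which encodes tricellulin, a seal of the corners between cells, was at 2.68, 2.44 and 2.75 in E1KD and 5.17, 5.09 and 5.27 in L2P, a 5.87-fold rise (2.55 ± 0.21, adjusted p = 8.71e-06). That brought it close to the NMuMG level of 5.58. Among 22 keratins and mammary markers, 2 rose and 1 fell (13.6%, against 3.78% of all genes). The luminal factor Foxa1 rose 3.21-fold (adjusted p = 0.0186), a call lost without E1KD array 2 (0.0919), E1KD array 3 (0.088), L2P array 2 (0.0785) or L2P array 3 (0.0673). The apical mucin gene Muc1 fell 3.93-fold (-1.97 ± 0.29, adjusted p = 0.00128). Of 12 connexins and pannexins, 2 rose and 1 fell, against 2.14% and 1.64% of all genes. Gjb5 (4.17-fold) and Panx1 (2.81-fold), both channel proteins, rose and Gjc1 fell (1.64-fold, adjusted p = 0.0299). Leaving out any 1 of the 6 arrays ended the Gjc1 call (0.0704 to 0.126).

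The TGF-beta, activin and BMP list of 34 genes had 2 rises and 3 falls (median -0.04). Fst, follistatin, which binds and blocks activin, rose 2.77-fold (adjusted p = 0.00778), and the activin subunit gene Inhbb fell 6.81-fold, from 8.68, 7.79 and 7.67 to 6.22, 5.05 and 4.56 (-2.77 ± 0.37, adjusted p = 0.000648). The activin A subunit gene Inhba was at -0.63 and did not pass (adjusted p = 0.217). Ccn2, a matrix-associated target of TGF-beta and of Yap, fell 3.38-fold (adjusted p = 0.0195), a call lost without any 1 of the 6 arrays other than L2P array 1 (0.0587 to 0.105). Bmp4, on chromosome 14, rose (0.93, adjusted p = 0.0162) and Bmp2 fell (-1.56, 0.0361). The Bmp4 call was lost without E1KD array 1 (0.083), E1KD array 2 (0.0629) or L2P array 1 (0.065), and that of Bmp2 without E1KD array 2 (0.11), E1KD array 3 (0.174), L2P array 1 (0.138) or L2P array 3 (0.0809). In the Yap, Taz and TEAD list 2 of 21 genes, Ccn2 and F3, fell (9.52%, against 3.78% of all genes). In that list 15 genes were lower (median -0.27). In the Wnt list of 37, 5.41% were called, against 3.78% of all genes. The ligand gene Wnt10a rose 5.67-fold (adjusted p = 0.00672) and Rnf43, a ligase that removes Wnt receptors, fell 2.9-fold (0.0456). The Rnf43 call was lost without E1KD arrays 2 (0.149) or 3 (0.201) or L2P arrays 2 (0.208) or 3 (0.155). Of 18 Notch genes, 0 passed by limma, and up to 3 passed under some alternative.

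Among 37 matrix proteases, cathepsins and inhibitors, 4 rose and 0 fell (10.8%, against 3.78% of all genes), with a median of 0.06. Adam8, a surface protease of leukocytes and tumour cells, was 7.10, 6.37 and 6.65 in E1KD and 9.30, 8.58 and 8.23 in L2P, a 3.98-fold rise (adjusted p = 0.00279), and the stromelysin Mmp10 rose 2.23-fold (0.00585). Adam8 lies on chromosome 7, in the stretch described below. The membrane-bound collagenase Mmp14 (0.97, adjusted p = 0.0448, on chromosome 14) and the inhibitor Timp2 (0.63, 0.0405) missed the threshold without any 1 of the 6 arrays (0.077 to 0.199 and 0.0664 to 0.172), and Mmp14 also without M1P array 2 (0.0559). With the mean over probe sets Mmp14 was at 0.71 (0.0902) and Timp2 at 0.57 (0.107). Of 29 integrins and adhesion receptors, 13.8% were called, against 3.78% of all genes. Nrcam (3.12-fold), Itgb7 (2.85-fold, adjusted p = 0.000271) and Itgb4 (2.63-fold, adjusted p = 0.0477) rose. The neural adhesion gene Ncam1 fell (3.29-fold, adjusted p = 0.00534). Itgb7 pairs with alpha chains to bind mucosal addressin and E-cadherin, and Itgb4 anchors epithelia to the basement membrane. Itgb4 missed the threshold without any 1 of the 6 arrays (0.0584 to 0.178) or M1P array 2 (0.0564), and Nrcam without E1KD array 1 (0.0601), E1KD array 2 (0.0808), L2P array 2 (0.0766) or L2P array 3 (0.0805). With the mean over probe sets Nrcam was at 0.58 (adjusted p = 0.029) and Ncam1 at -0.81, still past the threshold. Of 35 collagens, laminins and matrix genes, Thbs1 alone passed (2.86%, against 3.78% of all genes).

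Within 27 tetraspanin and tetraspan membrane proteins, 4 rose and 3 fell (25.9%, against 3.78% of all genes), with a median of 0.07. The list was written with earlier results of these data known, so its share was not tested. Beside Tm4sf1 and Pmp22, Cd81, an organiser of membrane domains, rose 2.44-fold (adjusted p = 0.0005, on chromosome 7), and Tm4sf4, a relative of Tm4sf1, fell 2.41-fold (adjusted p = 0.00132). The other 3, Tspan4 (0.70), Lhfp (1.02) and Mal (-0.80), had adjusted p-values of 0.0177, 0.0364 and 0.0341. Each missed the threshold without some arrays: Tspan4 without E1KD arrays 2 (0.0987) or 3 (0.083) or L2P array 1 (0.0709), Lhfp without any 1 of the 6 (0.0544 to 0.174), and Mal without any but L2P array 1 (0.0629 to 0.142). Of 26 S100, Ly6 and LIM protein genes, 15.4% were called, against 3.78% of all genes. Crip1 and Crip2 (4.23-fold, adjusted p = 9.49e-06) rose and S100a4 and Ly6e (3.31-fold, 0.0162) fell. The Ly6e call was lost without E1KD arrays 1 (0.0739) or 3 (0.075) or L2P arrays 2 (0.0892) or 3 (0.0805). It was also lost with the mean over the 2 Ly6e probe sets (-0.95, 0.131), of which the second was at -0.17. Mal fell further with that mean (-1.62) than with its brightest probe set. Of 18 FGF ligands and receptors, 11.1% were called, against 3.78% of all genes. Fgf13 and the FGF carrier Fgfbp1 (3.23-fold, adjusted p = 0.00187) fell. Of 26 ErbB genes, Erbb3 and Mapk12, listed among its downstream kinases, were the ones that passed (7.69%, against 3.78% of all genes).

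Lists of growth, stress and metastasis genes came last. Of hypoxia and glycolysis genes 9.38% were called, of proliferation genes 5.88% and of oxidative stress genes 2.86%, against 3.78% of all genes. The share was 7.69% for contractile genes, 4.17% for the p53 list, 3.7% for the unfolded protein response and 2.44% for homeobox genes. Of 21 lung metastasis genes 3 rose and 1 fell, against 2.14% and 1.64% of all genes. Of 40 guidance genes 1 rose and 1 fell. Under some alternative up to 12 of 32 hypoxia and glycolysis genes and 15 of 35 oxidative stress genes passed. Of 34 proliferation genes, the replication licensing gene Cdc6 rose (0.72, adjusted p = 0.00425) and the checkpoint kinase gene Bub1b fell (-0.75, 0.0488), with a list median of 0.09. Bub1b missed the threshold under 11 of 21 alternatives. Among them were leaving out any 1 array of E1KD or L2P other than L2P array 1 (0.123 to 0.227), or M1P array 2 (0.0514). Others were only E1KD and L2P in the model (0.0935), the replicate number as a block (0.0686) and median centring (0.0604). Of 32 hypoxia and glycolysis genes, Epas1, the oxygen-regulated factor HIF-2 alpha, fell 5.98-fold, from 5.45, 5.67 and 6.18 to 3.16, 3.28 and 3.13 (-2.58 ± 0.32, adjusted p = 0.000382). The enolase Eno2 rose 2.53-fold (0.00795) and the collagen hydroxylase P4ha1 1.59-fold (0.0219), the latter lost without E1KD array 2 (0.121), E1KD array 3 (0.0927), L2P array 1 (0.0563) or L2P array 2 (0.119). The glutathione transferase Gstp1 rose 1.79-fold (adjusted p = 0.00233), the 1 change in 35 oxidative stress genes, and Xbp1, the spliced factor of the unfolded protein response, rose 1.78-fold (0.00459), the 1 change in 27. In the p53 list of 24, Gadd45b fell 2.02-fold (adjusted p = 0.0154), a call lost without E1KD arrays 1 (0.0799) or 3 (0.0552) or L2P arrays 2 (0.0758) or 3 (0.0805). In 21 lung metastasis genes named in earlier studies of breast cancer cells, Cxcl2, Lxn (2.56-fold, adjusted p = 0.00256) and Lgals3 (1.4-fold, 0.0117) rose and S100a4 fell. Lgals3 lies on chromosome 14, and its call was lost without E1KD array 1 (0.0626) or L2P array 3 (0.056). Of 40 guidance genes, Sema3b rose 3.74-fold (adjusted p = 0.000398) and Plxnd1 fell 2.65-fold (0.0225, lost without any 1 of the 6 arrays, 0.0545 to 0.112). Of 41 homeobox genes, Hoxb6 fell 2.17-fold (0.00427). In 26 contractile genes Mylk, the myosin light chain kinase, rose 2.24-fold (0.0263) beside Acta2; it was lost without E1KD arrays 1 (0.0793) or 2 (0.137) or L2P arrays 1 (0.0508), 2 (0.119) or 3 (0.0838).

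The calls were spread unevenly over the chromosomes, which were taken from RefSeq's gene table and used only for membership and order. On chromosome 14, 80 of 641 genes rose (12.5%, against 2.14% of all genes) and 6 fell. On chromosome 19, 38 of 609 fell (6.24%, against 1.64%) and 10 rose, and on chromosome 7, 61 of 1413 rose (4.32%) and 8 fell. Genes with a mean log2 signal above 6 in E1KD or L2P were then followed along these chromosomes; stretches and chromosomes were picked after their values were seen and have no test. On chromosome 14, 269 of 287 such genes were higher in L2P (93.7%), with a median of 0.57 log2 units (1.48-fold). On chromosome 19 from Men1 to the far end, 204 of 234 were lower, with a median of -0.48 (1.4-fold). On chromosome 7 from Wdr73 to the far end, 273 of 297 were higher (91.9%), with a median of 0.40 (1.32-fold). The 7650 other genes above that level had a median of 0 when pooled, with 49.5% higher, but single chromosomes among them differed. Chromosome 11 had 74.8% of its genes higher (median 0.17) and chromosome 12 had 74.0% (0.16), while chromosome 6 had 30.9% (-0.12) and the X chromosome 26.1% (-0.18).

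Each array showed these shifts. Relative to the E1KD mean, the chromosome 14 median was 0.49, 0.70 and 0.65 in the L2P arrays and 0.57, 0.62 and 0.64 in the L1P arrays, against -0.06 to 0.06 in E1KD, -0.10 to 0.02 in NMuMG and -0.27 to 0.08 in M1P. The chromosome 19 stretch was at -0.37, -0.47 and -0.50 in L2P and at 0.19 to 0.25 in NMuMG. The chromosome 7 stretch was at 0.51, 0.38 and 0.37 in L2P and at 0.40 to 0.70 in M1P. The L2P arrays did not overlap the E1KD arrays in any of the 3 stretches. The L1P arrays, at -0.47 to -0.46 on chromosome 19, lay with L2P there and on chromosome 14, and M1P, at -0.08 to 0.11 on chromosome 19, did not. On chromosome 7 the L1P arrays were at 0.37, 0.34 and 0.30, also above every E1KD array (-0.12 to 0.05). Among the genes named here, Sncg, Wdfy4, Dhrs1, Irf9, Abcc4, Bmp4, Mmp14 and Lgals3 rose on chromosome 14, where Scara3 and Fdft1 fell; Got1, Abcc2 and Bscl2 fell in the chromosome 19 stretch, where Cyp2c55 was 1 of 4 genes that rose. Elsewhere on chromosome 19, or below that signal level, Zfp518a fell and Acta2 and Gstp1 rose. AI467606, Prss23, Adam8, Tspan4 and Cd81 rose in the chromosome 7 stretch, where Chst15 fell, and Peg3 lay outside it. A denser block of rises lay within chromosome 14: from Thtpa to Dhrs1 on chromosome 14, 15 of 25 neighbouring genes rose. There Nedd8, a ubiquitin-like modifier, was 10.56, 10.39 and 10.40 in E1KD and 12.57, 12.40 and 12.43 in L2P (2.02, adjusted p = 1.1e-07), and Psme1, a proteasome activator subunit, rose by 2.43 (adjusted p = 2.25e-05). Pck2, mitochondrial PEP carboxykinase, rose by 2.04 (adjusted p = 0.00217), Tinf2, a telomere protein, by 2.17 (2.55e-06), and Irf9 by 1.41. DNA was not measured, and the cause of these shifts was not tested.

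The counts by chromosome moved with the total. Rises on chromosome 14 numbered 41 when E1KD array 2 was left out (6.4%, against 1.17% of all genes) and 57 to 60 when any other array of E1KD or L2P was. Without M1P array 1 they numbered 122. Falls on chromosome 19 numbered 21 without E1KD array 3, 21 without L2P array 2, 22 without L2P array 3 and 87 without M1P array 1. Rises on chromosome 7 were 24 without E1KD array 2 (1.7%, against 1.17% of all genes), 34 without E1KD array 3, 35 without L2P array 1, 39 without L2P array 2 and 106 without M1P array 1.

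**Figure D4:**
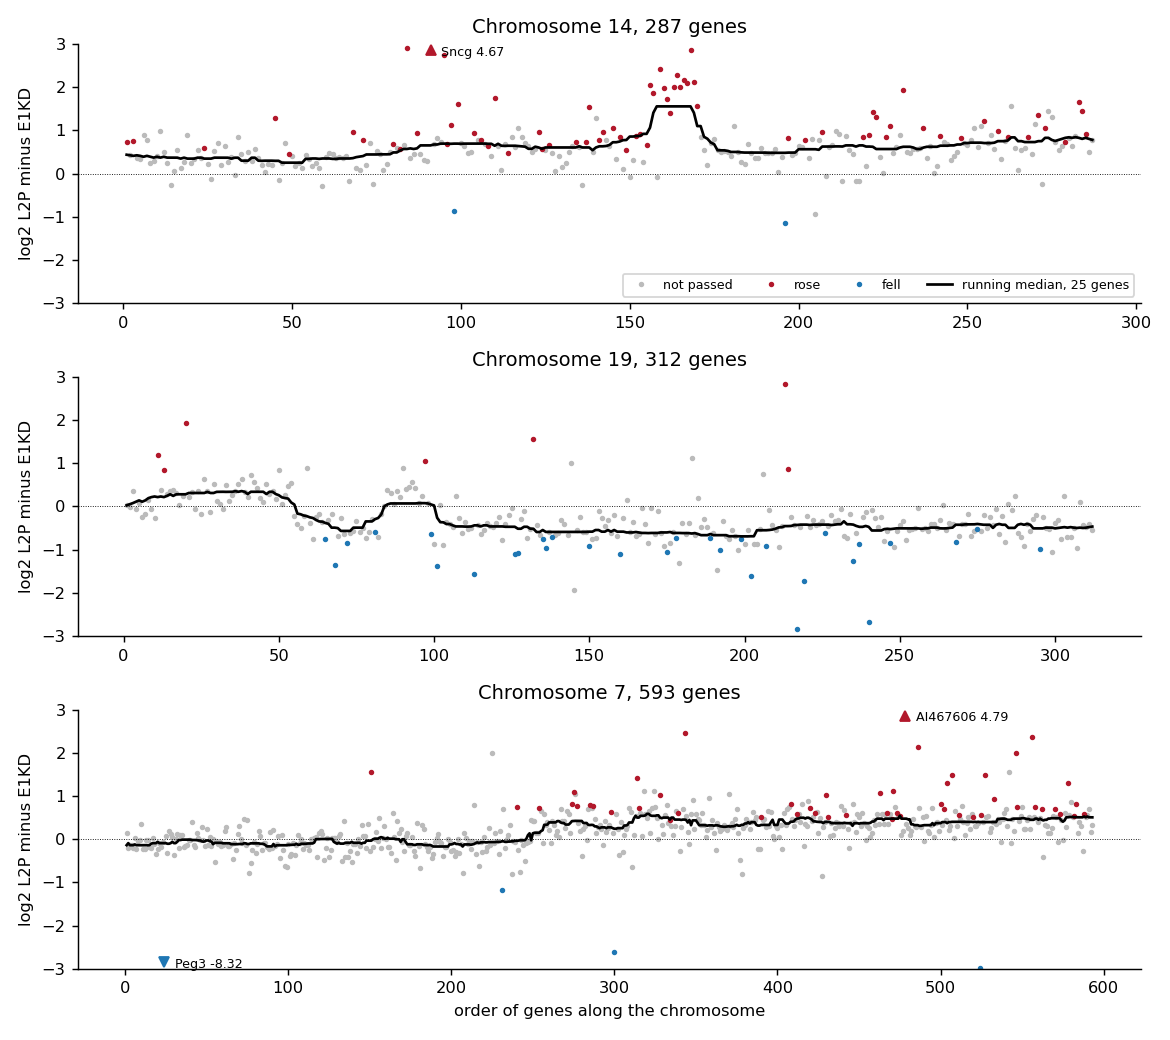
Difference between L2P and E1KD in log2 signal (vertical axis) for genes with a mean log2 signal above 6 in either line, in their order along chromosomes 14 (287 genes), 19 and 7 (horizontal axis), with the running median of 25 genes as a line. Triangles mark genes beyond the axis with their value (Sncg 4.67, AI467606 4.79, Peg3 -8.32); the running median lies above 0 along chromosome 14, below 0 over most of chromosome 19 and above 0 in the latter part of chromosome 7.

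L2P was also set against L1P, the line it came from, to see which of its differences from E1KD separated the lung lines. The L2P arrays enter both comparisons, so the values are given side by side. Between L2P and L1P 26 genes passed (0.143% of 18193), 17 higher and 9 lower in L2P, and 414 had an unadjusted p under 0.05. The count was 53 without M1P array 1. Of the 687 genes called against E1KD, 663 did not pass against L1P. Cxcl3 (6.54 ± 0.65, adjusted p = 0.000331) and Fgf13 (-7.19 ± 0.23, 2.73e-09) led in each direction, with L1P at the E1KD level in both. The same held for Slc4a5, at 2.79, 2.79 and 2.69 in L1P and 6.24, 5.86 and 5.99 in L2P (3.27, adjusted p = 2.72e-06). Itgb2 was at 3.85, 3.90 and 3.71 in L1P, 4.38, 4.49 and 4.39 in E1KD, and 7.02, 6.37 and 6.49 in L2P. It was 2.81 above L1P (adjusted p = 0.0016). Pstpip1, a cytoskeletal adaptor of blood cells, was higher than in L1P by 2.14 (0.000987), Grap, an adaptor of lymphocyte signalling, by 2.30 (1.61e-05), and Xdh, xanthine dehydrogenase, by 2.35 (0.0086). The Xdh call was lost without L1P arrays 1 (0.0648) or 3 (0.0571) or L2P arrays 2 (0.0695) or 3 (0.0656).

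Tm4sf1 rose stepwise from E1KD to L1P to L2P, with means of 6.44, 11.18 and 13.20. Arrays of E1KD, L1P and L2P did not overlap (2.02 above L1P, adjusted p = 7.73e-05). M1P, with a mean of 13.35 and arrays at 13.48, 13.34 and 13.24, overlapped L2P. Chst15 descended from E1KD to L1P to L2P, from 7.77 to 6.54 to 4.79 (-1.75 against L1P, adjusted p = 0.0086). That call was lost without L1P array 1 (0.0565) or 3 (0.0696). AI662270 went up and then down: 4.94, 4.90 and 5.00 in E1KD, 7.11, 7.21 and 7.25 in L1P, and 4.22, 4.36 and 4.49 in L2P. Flrt2, an adhesion and guidance protein, was lower than in L1P by -2.21 (0.00239), Slc18b1, a polyamine transporter, by -2.18 (0.00429), and the cancer-testis gene Magea5 by -1.93 (0.00044). Bscl2, seipin of lipid droplets, was lower by -1.57 (0.035), a call lost without any 1 of the L1P or L2P arrays (0.103 to 0.22) or M1P array 2 (0.0627). Tm4sf4 was lower by -1.31 (0.0086), lost without L1P arrays 1 (0.0526) or 2 (0.063) or L2P arrays 2 (0.0733) or 3 (0.0656). Epb41l4a, a membrane skeleton protein, and Cyp2j6, a cytochrome P450, differed from L1P by 2.93 and -2.08, but their L2P levels were near those of E1KD and did not pass against it.

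**Figure D5:**
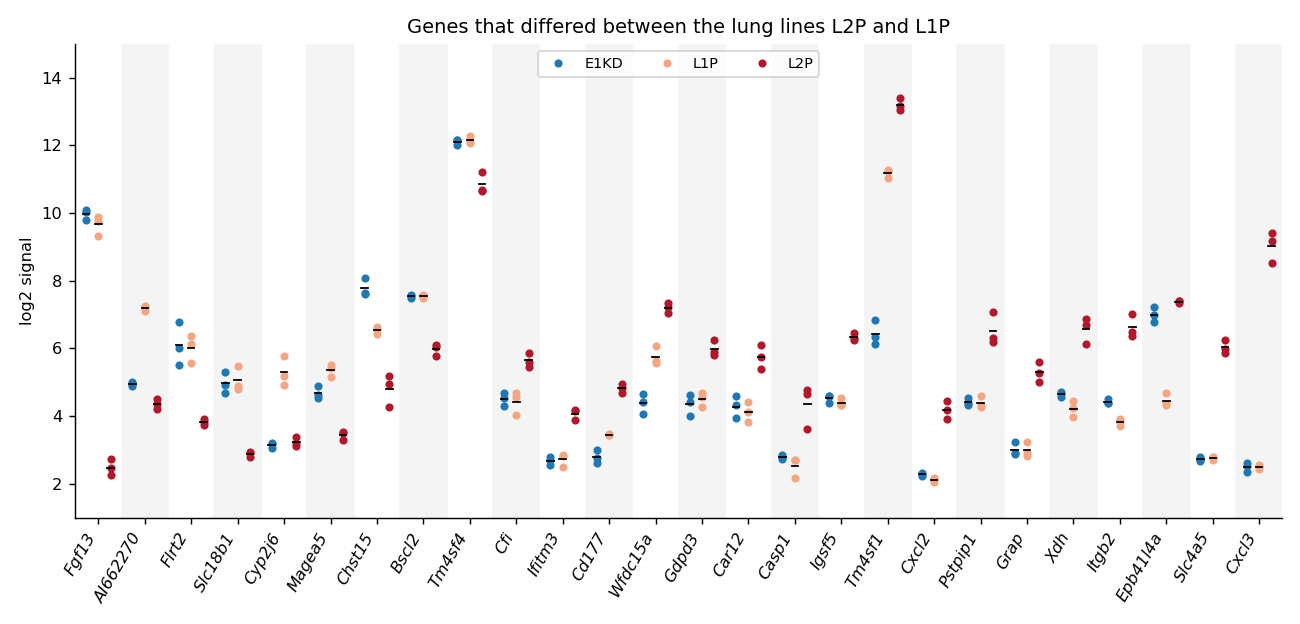
Log2 signal (vertical axis) in E1KD, L1P and L2P of the 26 genes that differed between L2P and L1P, ordered by that difference from Fgf13 at -7.19 to Cxcl3 at 6.54, with 1 point per array (3 per line) and bars at the means. In Fgf13, Slc4a5 and Cxcl3 L1P lies with E1KD and L2P apart, while in AI662270, Cyp2j6 and Epb41l4a L1P lies apart.

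NMuMG places the E1KD comparison against the parental epithelium. L2P differed from NMuMG in 2591 genes (14.2%), 1012 higher (5.56%) and 1579 lower (8.68%); this comparison again shares the L2P arrays. The count was 1718 without L2P array 3 and 4020 without M1P array 1. Among genes called against E1KD, Lhfp, a tetraspan gene, was the farthest above NMuMG (2.46 in NMuMG, 9.20 in E1KD and 10.21 in L2P). Cyp2c55, an arachidonic acid hydroxylase, was at 3.30 in NMuMG, at 6.59, 6.93 and 6.58 in E1KD and at 8.97, 9.73 and 9.91 in L2P, rising in both comparisons. Cxcl3 (6.29 above NMuMG), Crip1 (6.10) and Erbb3 (4.88) were also far above NMuMG, as was the serine protease gene Prss23 (4.55); its rise from E1KD, 2.68-fold (adjusted p = 0.0405), was lost without any 1 of the arrays other than L2P array 1 (0.0978 to 0.174). Below NMuMG, F2r (-8.16) and Peg3 (-6.80) were farthest, with Cdh16, a kidney and epithelial cadherin, at 10.77 in NMuMG, at 6.33, 5.80 and 5.93 in E1KD and at 4.16, 3.77 and 4.02 in L2P. For F2r and Cdh16 the 3 lines did not overlap, E1KD lying between the others. Tm4sf1, AI467606 and Marveld2 ran the other way: low in E1KD, and in L2P within 1.1 log2 units of NMuMG, at 1.07, 0.82 and -0.41.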

How the data were processed

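The deposited values were log2 signals of 45101 probe sets on 15 arrays, used as deposited. RMA, MAS5 and the Affymetrix Expression Console are named in the submitters' processing notes; which of them gave the values, and their versions, are not given here by any source. Names came from the platform annotation, updated by Entrez identifier through RefSeq (GRCm38.p6): 34945 probe sets had 1 symbol, 932 several, 9160 none and 64 were controls. One probe set per gene, that of highest mean, left 18193 genes. The test was limma's (3.58.1, R 4.3.3; lmFit, eBayes) with each line as a coefficient and all 15 arrays in the model (10 residual and 2.98 prior degrees of freedom). Tests were two-sided, with Benjamini-Hochberg adjustment over all genes and a threshold of 0.05. The test was tried on simulated data first. These gave all 15 arrays the same spread for a gene, unlike the unequal weights of the arrays here. The trial therefore cannot vouch for the counts. Named genes were 14 fixed genes, the 15 largest rises and falls whose arrays do not overlap, up to 4 passing members per list and direction, and the extremes against L1P and NMuMG; other names were added after their values were seen. Members and lists were chosen with earlier results of these data known. Leaving out single arrays, other models, scalings and choices of probe set were tried. Arrays carry no read depth; 3 arrays per line limit the precision.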

Additional observations from a re-analysis of the deposited data

Results flagged for a closer look

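Among 10092 probe sets without a single gene symbol, which the comparison of genes did not use, 89 passed in L2P against E1KD (47 higher and 42 lower, 0.882%). The change from E1KD differed between L2P and L1P in 26 genes, by the test of L2P against L1P. One of them, AI662270, rose from E1KD to L1P (2.24, adjusted p = 7.88e-08) and fell from E1KD to L2P (-0.59, adjusted p = 0.00859), a difference of -2.83 between the lung lines. Its fall from E1KD was at -0.43 (adjusted p = 0.55) with the probe set of largest variance and at -0.51 (0.0654) with the mean of its probe sets.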

How the results depend on the processing

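The count of 687 genes was 1351 without the M1P line (753 rises, 598 falls), 3360 with array weights (1426 and 1934), 1771 with only L2P and E1KD and without L2P replicate 1 (955 and 816), and 1543 with each array's upper quartile as a covariate (885 and 658). The last 2 of these, and leaving out M1P arrays, were added after seeing the data. Rises of at least 2-fold went from 223 to 340 with array weights and 356 with only L2P and E1KD and without L2P replicate 1, and such falls from 175 to 277 with array weights. L2P against L1P gave 69 genes without the M1P line, 183 with weights and 63 with the upper quartile; L2P against NMuMG gave 4475 and 7684 under the first 2. Leaving out single arrays gave 424 to 1164 genes in all, 212 to 660 rises and 175 to 504 falls, 158 to 258 rises and 132 to 208 falls of at least 2-fold, 18 to 53 genes against L1P and 1718 to 4020 against NMuMG; the cause was not tested. The other settings gave 628 to 867 genes, among them median centring (689) and quantile normalization (628). With the replicate number as a block there were 846 (495 rises, 351 falls). Deviations of same-numbered E1KD and L2P arrays from their line means correlated at 0.58, 0.52 and -0.19. For differently numbered arrays the correlations ran from -0.67 to 0.64. Deviations within a line of 3 arrays sum to 0, so these values cannot decide whether the numbers pair arrays. Of 2538 repeats of 121 gene results under up to 21 alternatives, 2334 kept direction and side of the threshold, 176 lost the call, 28 gained it and 0 reversed; 80 of 113 called results held under all alternatives run. Signals near the floor, without detection calls, and 3 arrays per line limit what could be detected.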
